A study of Mus musculus with 4 samples.

Results

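Transcript levels of 10 genes of the endoplasmic reticulum (ER) folding machinery and the unfolded protein response were measured in mouse melanocyte stem cells. The genes are Hspa5, Hsp90b1, Pdia4, Pdia6, Calr, Dnajb9, Herpud1, Xbp1, Sdf2l1 and Manf. They were chosen by name, and all 10 were found among the 27933 genes of the count tables and passed the filter on low counts. Melanocyte stem cells, the precursors of the pigment cells of the hair follicle, had been isolated from skin with a fluorescence-activated cell sorter. Stressed cells (n = 2 libraries) came from mice injected with RTX, which the labels name by this abbreviation alone, and control cells (n = 2 libraries) from mice given saline, with harvest 12 h after the injection. The labels used here give no strain, genotype, sex or age, and leave it unsaid whether a group's libraries stem from separate animals. The p-values therefore describe the spread between libraries, part of which may be technical. The title of the series concerns how strongly driven sympathetic nerves lead to the loss of these cells, and the comparison asks which transcripts differ between stressed and control cells.

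Proteins that enter the ER are folded there by chaperones and by enzymes that form disulfide bonds. When unfolded protein builds up, the sensors IRE1, PERK and ATF6 set off the unfolded protein response, which raises transcription of chaperone genes and of the machinery that removes misfolded protein, called ER-associated degradation (ERAD). The transcription factor XBP1 is made active when IRE1 splices its mRNA. In pigment cells the ER folds the glycoproteins of the melanosome, among them tyrosinase, whose folding uses calnexin and calreticulin. A gene count does not separate the spliced from the unspliced Xbp1 mRNA, and splicing was not analysed here.

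Many genes of this response carry an ER stress response element (ERSE) close to the start site, which is read by ATF6 and XBP1 together with the factor NF-Y. The promoter stretches below are shown as a description. The genes were chosen by name as genes of this response, so the presence of the element in them is not independent of that choice. RefSeq windows of 300 bases on GRCm38.p6, with 250 bases before and 50 after the start site, were found for 9 of the 10 genes. They were searched on both strands for ERSE (CCAAT, then 9 bases of any kind, then CCACG), for ERSE-II (ATTGG, then 1 base of any kind, then CCACG) and for a further XBP1 and ATF6 motif, UPRE (TGACGTGG). ERSE and ERSE-II are built of the same pieces, since ATTGG is CCAAT read on the other strand. ERSE was found in 4 of the 9 windows, those of Hspa5, Hsp90b1, Pdia6 and Calr, and ERSE-II in that of Herpud1. The windows of Pdia4, Dnajb9, Xbp1 and Sdf2l1 held no exact match to any of the 3 motifs, which says only that these letters are not in those windows. The stretches lie at chr2:34771995-34772073 on the plus strand (Hspa5), chr10:86705503-86705686 on the minus strand (Hsp90b1), chr12:17266461-17266539 on the plus strand (Pdia6), chr8:84847045-84847123 on the minus strand (Calr) and chr8:94386347-94386417 on the plus strand (Herpud1). They are printed in the direction of transcription, all before the RefSeq start site, with the motif in capitals. The files' own annotation of Hspa5 begins further upstream, at 34771970, so the Hspa5 stretch lies before the RefSeq start but within an exon of that annotation. Their annotation of Hsp90b1, on the minus strand, begins at 86705509, also upstream of the RefSeq start. The last bases of the Hsp90b1 stretch thus lie within that annotated gene.
Hspa5: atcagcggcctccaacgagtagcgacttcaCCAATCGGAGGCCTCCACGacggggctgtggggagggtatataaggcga
Hsp90b1: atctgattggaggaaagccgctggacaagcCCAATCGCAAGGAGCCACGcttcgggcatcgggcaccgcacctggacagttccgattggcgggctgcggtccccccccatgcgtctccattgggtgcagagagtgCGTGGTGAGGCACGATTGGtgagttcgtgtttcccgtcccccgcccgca
Pdia6: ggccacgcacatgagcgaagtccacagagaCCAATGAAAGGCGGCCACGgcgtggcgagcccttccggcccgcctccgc
Calr: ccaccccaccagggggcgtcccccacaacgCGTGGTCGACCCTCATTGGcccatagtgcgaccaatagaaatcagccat
Herpud1: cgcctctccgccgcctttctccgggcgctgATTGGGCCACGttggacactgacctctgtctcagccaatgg
The Hsp90b1 stretch holds ERSE once on each strand, and the Calr match lies on the strand opposite to transcription. In the Hspa5 window the element ends 47 bases before the start site, and in the Pdia6 window 80 bases before it.

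The libraries held 10625688 and 11104039 counts in stressed replicates 1 and 2, and 9273652 and 11854280 counts in control replicates 1 and 2. The melanocyte markers were present in every library: 10 genes including Dct, Pmel, Tyrp1 and Sox10 summed to 41121 and 38151 CPM in the stressed libraries, against 23746 and 22763 CPM in the control libraries. In 6 of the 10 both stressed libraries lay above both controls, and in 0 below, against 21.8% and 22.9% of all genes tested. RNA of keratinocytes, the main cells of the epidermis and follicle, was also present, at 13311 and 11769 CPM summed over 17 markers in the stressed libraries, against 31042 and 19616 CPM in the control libraries. In 11 of these 17 both stressed libraries lay below both controls, and in 0 above, against 22.9% and 21.8% of all genes tested. Summed over their lists, endothelial markers stayed at or below 4.96 CPM and fibroblast markers at or below 23.5 CPM in each library, with Cdh5 and Lum at 0 counts in all 4. Immune markers ranged between 5.94 and 39.3 CPM, the highest in control replicate 2. In 2 of the 6 Schwann cell markers both stressed libraries lay below both controls, and in 0 above, against 22.9% and 21.8% of all genes tested. Of these 2, Mbp was at 23.2 and 12.8 CPM in the stressed libraries, against 39.7 and 33.9 CPM in the control libraries. S100b was at 14.2 and 16.4 CPM in the stressed libraries, against 19.2 and 39.7 CPM in the control libraries. The other Schwann cell markers overlapped between the groups. Mitochondrial genes took 0.479% and 0.405% of counts in the stressed libraries, against 0.906% and 2.07% in the control libraries, with control replicate 2 the highest. In bulk RNA a lower number of cells of a type and less RNA per cell cannot be told apart.

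Of the 10 genes, the 6 with the largest fold changes encode the chaperones BiP, GRP94 and calreticulin, the BiP partner SDF2L1 and the disulfide isomerases ERp72 and P5. Their values were 1.33-fold to 1.88-fold higher in stressed than in control cells. None passed edgeR, DESeq2 or limma-voom over the 13348 genes tested with all 4 libraries. The BiP co-chaperone gene Dnajb9 and the ER lumen gene Manf had smaller log2 fold changes, 0.27 (SE 0.26) and 0.33 (SE 0.30). The fold changes of the transcription factor gene Xbp1 and the ERAD gene Herpud1 were smaller than their SEs. In 7 of the 10 genes both stressed libraries lay above both control libraries, against 21.8% of the 13348 genes tested, and in the other 3 the groups overlapped. The edgeR quasi-likelihood test, with Benjamini-Hochberg adjustment over all genes, called 0 of the 10 genes and 0% of all genes tested. At an unadjusted p below 0.05 it had 3 of the 10 on the higher side (Sdf2l1, Hspa5 and Hsp90b1), against 5.17% of all genes, and 0 on the lower side, against 7.6%. DESeq2 called 0 of the 10, against 4.4% of all genes, and limma-voom called 0 of the 10, against 0% of all genes. The median log2 fold change of the 10 genes was 0.42, with 9 above 0, beside a median of -0.01 over all genes tested, of which 49.1% were above 0. With control replicate 1 left out the median was 0.74, and with control replicate 2 left out it was 0.27.

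**Figure D1:**
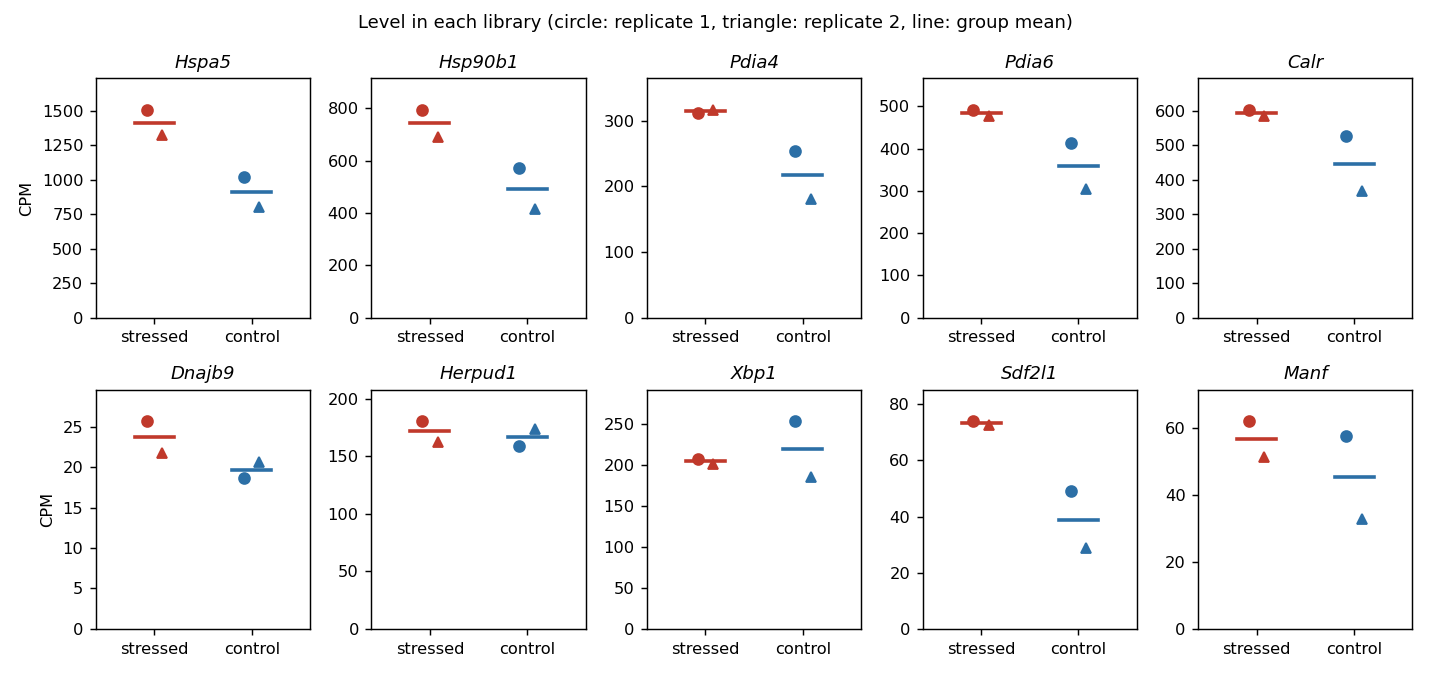
CPM (counts scaled to a common library total, vertical axis, from 0) of each of the 10 genes in the stressed libraries (red, left) and the control libraries (blue, right), with circles for replicate 1, triangles for replicate 2 and a line at the group mean. In Hspa5, Hsp90b1, Pdia4, Pdia6, Calr, Dnajb9 and Sdf2l1 both red points lie above both blue points, and in Herpud1, Xbp1 and Manf the groups overlap.

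Hspa5 (chromosome 2, 34771970-34777547, mm10) encodes BiP, the main HSP70 chaperone of the ER lumen, which also holds the stress sensors inactive. It stood at 1509 and 1321 CPM in stressed replicates 1 and 2, against 1023 and 799 CPM in control replicates 1 and 2. Both stressed libraries lay above both controls, and the lowest stressed value exceeded the highest control value by 0.37 on the log2 scale. The group means were 1415 ± 133 CPM in stressed cells and 911 ± 158 CPM in control cells (SD, n = 2 each), which gave a log2 fold change of 0.64 (SE 0.23). Its adjusted p was 0.335 by edgeR and 0.0654 by DESeq2. Without control replicate 1 the fold change was 0.83 on the log2 scale and passed edgeR at an adjusted p of 0.0304.

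Hsp90b1 (chromosome 10, 86690209-86705509) encodes GRP94, the HSP90 chaperone of the ER, which folds a narrower set of clients such as integrins and Toll-like receptors. Its level was 795 and 691 CPM in the stressed libraries, against 570 and 414 CPM in the control libraries. The groups did not overlap, and replicate 1 was the higher of each pair, as for Hspa5. The log2 fold change was 0.59 (SE 0.24, edgeR adjusted p = 0.373). It reached 0.85 when control replicate 1 was left out (edgeR adjusted p = 0.0219) and 0.38 when control replicate 2 was. In the files' annotation 10.3% of its exon bases are shared with 1810014B01Rik on the opposite strand, a gene with 150 counts over the 4 libraries.

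Sdf2l1 (chromosome 16, 17130138-17132383), whose product works with BiP and its partner ERdj3 to keep unfolded proteins soluble, had the largest difference of the 10 genes. Its level was 74.1 and 72.5 CPM in the stressed libraries, against 49.0 and 29.0 CPM in the control libraries. The stressed pair was nearly equal, and the control pair was 0.76 apart on the log2 scale. The log2 fold change was 0.91 (SE 0.28), at an adjusted p of 0.264 by edgeR and 0.0912 by DESeq2. Leaving out control replicate 1 gave 1.34 (edgeR adjusted p = 0.00134), and leaving out control replicate 2 gave 0.58.

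Pdia4 and Pdia6 encode the protein disulfide isomerases ERp72 and P5, which make and rearrange disulfide bonds, and both also bind BiP. Pdia4 (chromosome 6, 47796141-47813430) was at 311 and 317 CPM in the stressed libraries, against 254 and 180.1 CPM in the control libraries. Pdia6 (chromosome 12, 17266545-17284770) was at 492 and 477 CPM in the stressed libraries, against 413 and 305 CPM in the control libraries. For both genes the groups did not overlap, and control replicate 2 was the lowest library. Their log2 fold changes were 0.53 (SE 0.22) for Pdia4 and 0.43 (SE 0.22) for Pdia6, and edgeR gave adjusted p values of 0.398 and 0.476. Pdia4 passed edgeR without control replicate 1, at a log2 fold change of 0.81 and an adjusted p of 0.0218. Pdia6 was at 0.67 with control replicate 1 left out and at 0.23 with control replicate 2 left out.

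Calr (chromosome 8, 84841850-84846934) encodes calreticulin, a lectin chaperone that binds the sugar chains of new glycoproteins and stores calcium. It was at 603 and 584 CPM in the stressed libraries, against 525 and 368 CPM in the control libraries. The groups were apart by 0.15 on the log2 scale, while the control pair differed by 0.52. The log2 fold change was 0.41 (SE 0.24, edgeR adjusted p = 0.536). Dropping control replicate 1 gave 0.70, and dropping control replicate 2 gave 0.18.

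Without control replicate 1, then, edgeR called 4 of the 10 genes (Hspa5, Hsp90b1, Pdia4 and Sdf2l1), all higher in stressed cells, against 3.17% of all genes called higher in that fit. It called 0 of the 10 when control replicate 2, stressed replicate 1 or stressed replicate 2 was left out. With control replicate 1 left out, the control group is a single library, which is assumed to vary like the stressed pair. With no filter on low counts edgeR called 1 of the 10, Sdf2l1, against 1.35% of genes called higher in that fit.

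**Figure D2:**
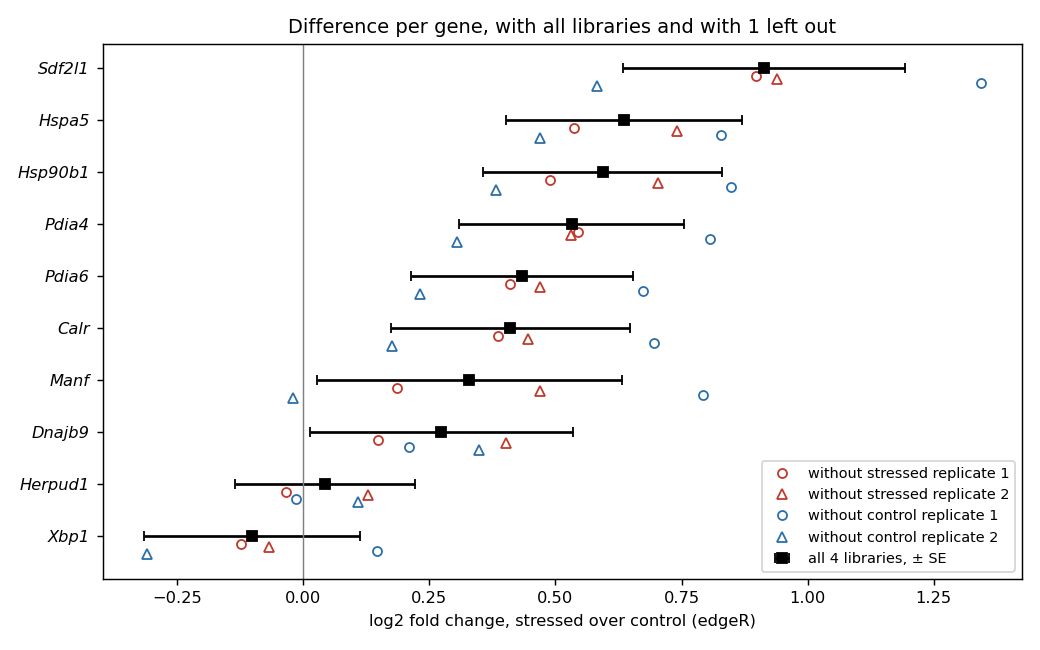
Log2 fold change of each of the 10 genes, stressed over control (horizontal axis), from all 4 libraries (black squares, bars ± SE) and with 1 library left out (open symbols, red for a stressed and blue for a control library, circles for replicate 1 and triangles for replicate 2). For Sdf2l1, Hspa5, Hsp90b1, Pdia4, Pdia6, Calr and Manf the value is highest with control replicate 1 left out and lowest with control replicate 2 left out, for Sdf2l1 1.34 and 0.58.

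Dnajb9 (chromosome 12, 44205897-44210068) encodes ERdj4, a co-chaperone that drives the BiP cycle and helps BiP to silence IRE1. Its level was 25.7 and 21.7 CPM in the stressed libraries, against 18.6 and 20.6 CPM in the control libraries. The stressed values were higher by a margin of 0.08 on the log2 scale, less than the 0.24 between the stressed libraries. The log2 fold change of 0.27 had an SE of 0.26 (edgeR adjusted p = 0.731).

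Herpud1 (chromosome 8, 94386438-94395377) encodes a membrane protein that assembles the ubiquitin ligase complex of ERAD. It was at 181 and 163 CPM in the stressed libraries, against 159 and 174 CPM in the control libraries. The groups overlapped, and the log2 fold change was 0.04 with an SE of 0.18. That value fell on either side of 0 with 1 library left out, between -0.035 and 0.13. Its promoter stretch holds the ERSE-II letters printed above.

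Xbp1 (chromosome 11, 5520659-5525893), the factor gene of the IRE1 branch, was at 208 and 201 CPM in the stressed libraries, against 253 and 185 CPM in the control libraries. The stressed pair lay between the control libraries. The log2 fold change of -0.10 had an SE of 0.21 and was 0.15 without control replicate 1.

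Manf (chromosome 9, 106838310-106891980), which encodes a protein of the ER lumen that is released under stress and has trophic effects on neurons, was at 62.2 and 51.6 CPM in the stressed libraries, against 57.7 and 33.0 CPM in the control libraries. The groups overlapped because control replicate 1 exceeded stressed replicate 2. The log2 fold change of 0.33 had an SE of 0.30, and the value became 0.79 on dropping control replicate 1 and -0.021 on dropping control replicate 2. The Manf locus in the files runs across other genes, and 9.25% of its exon bases are shared with 3 of them, so reads there could not be assigned with certainty.

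Since counts also grow with transcript length, levels were compared between genes as TPM (counts divided by exon length and scaled to a common total). Hspa5 was the most abundant of the 10 in every library, at 1181 and 1047 TPM in the stressed libraries, against 758 and 607 TPM in the control libraries. Calr followed at 686 ± 9.97 TPM in stressed cells and 491 ± 115 TPM in control cells, and Hsp90b1 came next at 613 ± 55.8 TPM in stressed cells and 387 ± 79.9 TPM in control cells (SD, n = 2 each). In each library Calr lay above Hsp90b1, although the control group means differed by less than their SDs summed. Pdia4 and Pdia6 were not separated beyond their spread, at 436 ± 9.2 and 431 ± 6.2 TPM in stressed cells, and at 287 ± 64.3 and 303 ± 59.3 TPM in control cells. Herpud1, Xbp1 and Sdf2l1 formed the next group. In the stressed libraries Sdf2l1 was at 221 and 219 TPM and Xbp1 at 212 and 208 TPM, while in the control libraries Sdf2l1 was at 139 and 84.0 TPM and Xbp1 at 245 and 183 TPM. Sdf2l1 was thus above Xbp1 in both stressed libraries and below it in both control libraries. Manf and Dnajb9 were the lowest, between 30.1 and 58.5 TPM in all libraries.

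The share of each gene in the set differed between groups for some genes and overlapped for others. Hspa5 held 28.2% and 26.7% of the summed TPM of the 10 genes in the stressed libraries, against 24.2% and 25.1% in the control libraries. Sdf2l1 held 5.29% and 5.59% in the stressed libraries, against 4.43% and 3.47% in the control libraries. Xbp1 held 5.06% and 5.30% in the stressed libraries, against 7.82% and 7.57% in the control libraries, and Herpud1 6.12% and 5.96% against 6.83% and 9.89%. Hsp90b1 held 15.6% and 14.7% in the stressed libraries, against 14.2% and 13.6% in the control libraries. For these 5 genes the groups did not overlap in share. In CPM, both stressed libraries lay above both controls in 21.8% of all genes tested and below both in 22.9%. A count of 5 in 10 is therefore a description only. Shares within a set also move one another, and in CPM the groups overlapped for Xbp1 and Herpud1. The shares of the other 5 did overlap, such as that of Calr, at 16.6% and 17.3% in the stressed libraries, against 18.3% and 16.9% in the control libraries.

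Summed over the 10 genes, the level was 4271 and 3861 CPM in the stressed libraries, against 3345 and 2497 CPM in the control libraries. Pigment cell marker RNA was also higher in both stressed libraries, as given above. Per 100 CPM of the summed melanocyte markers, the 10 genes stood at 10.4 and 10.1 CPM in the stressed libraries, against 14.1 and 10.97 CPM in the control libraries. On this scale the stressed libraries were the lower ones. The largest values in that marker sum were those of the pigment genes Dct, Pmel and Tyrp1, higher in both stressed libraries. For Mitf, Sox10, Ednrb and Pax3 the groups overlapped, so the scale rests on the choice of markers. Per 100 CPM of the keratinocyte markers the 10 genes stood at 32.1 and 32.8 CPM in the stressed libraries, against 10.8 and 12.7 CPM in the control libraries. The part of the cell make-up and of the mitochondrial share, which was also lower in both stressed libraries, in the differences was not tested.

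Genes whose levels over the 4 libraries were most like those of Hspa5 were sought among the 2555 other genes with a mean of at least 100 CPM, by the root mean square difference in log2 CPM after centring each gene on its mean. The closest were Rabep1 (0.030), Tcn2 (0.040), Hsp90b1 (0.041), Hspa8 (0.062) and Cdk2 (0.064). Hspa8 encodes the constitutive HSP70 of the cytosol, Tcn2 a vitamin B12 carrier and Rabep1 an effector of early endosome fusion, and Cdk2 is a kinase of the cell cycle. Pdia4, Pdia6 and Calr ranked 18, 26 and 37, whereas Herpud1 and Xbp1 ranked 1120 and 1332. With 4 libraries such likeness is a description only.

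The other genes of the pathway were read from the same fit, in lists of ER folding, ERAD, sensors and their factors, the translocon with signal peptidase, and the PERK-ATF4 arm. EdgeR called 0 members of each list, and 0% of all genes tested. The ER folding list had 24 tested members of 26 listed, 15 with a fold change above 0 and 9 below, and a median log2 fold change of 0.17. DESeq2 called 2 of the 24 as higher, against 1.73% of all genes tested, and 0 as lower, against 2.67%. At an unadjusted edgeR p below 0.05, 4 were higher and 1 was lower, against 5.17% and 7.6% of all genes. In 10 of the 24 both stressed libraries lay above both controls, and in 4 both lay below, against 21.8% and 22.9% of all genes.

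Hyou1, which encodes the large HSP70-like chaperone GRP170 that exchanges the nucleotide of BiP, rose by DESeq2 (adjusted p = 0.00767). It was at 87.8 and 104.6 CPM in the stressed libraries, against 53.6 and 37.9 CPM in the control libraries, and edgeR gave a log2 fold change of 1.07 (SE 0.23, adjusted p = 0.168). Dnajc3, which encodes the BiP co-chaperone P58IPK, also rose by DESeq2 (adjusted p = 0.0351), with 297 and 282 CPM in the stressed libraries, against 183 and 193 CPM in the control libraries. Its control libraries were close, and its edgeR log2 fold change of 0.62 had an SE of 0.18. Txndc5, a disulfide isomerase family gene, was at 243 and 314 CPM in the stressed libraries, against 160.5 and 184 CPM in the control libraries, and was not called. Fkbp2, which encodes a prolyl isomerase of the ER, lay on the other side, at 40.1 and 36.0 CPM in the stressed libraries, against 69.4 and 49.1 CPM in the control libraries, and was not called either. The list thus held values on both sides of 0.

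The ERAD list had 19 tested members of 21 listed, with 13 fold changes above 0, 6 below and a median of 0.24. DESeq2 called 0, against 4.4% of all genes tested. At an unadjusted edgeR p below 0.05, 4 were higher and 0 were lower, against 5.17% and 7.6% of all genes. Edem1, whose product takes mannose-trimmed glycoproteins to degradation, was at 189.9 and 210.4 CPM in the stressed libraries, against 136 and 138 CPM in the control libraries (log2 fold change 0.55, SE 0.17). Syvn1, the ubiquitin ligase HRD1, was at 107 and 141 CPM in the stressed libraries, against 84.95 and 90.7 CPM in the control libraries. Ube2j1, a ubiquitin-conjugating enzyme of the ER membrane, was at 130.4 and 127 CPM in the stressed libraries, against 82.4 and 101.7 CPM in the control libraries. These 3 were named for having the largest differences of the list at a mean of at least 10 CPM. In all 3 both stressed libraries lay above both controls, while for Herpud1 the groups overlapped. Below that level Derl3 had the largest log2 fold change of the list, 1.80 (SE 0.71). It was at 2.91 and 3.64 CPM in the stressed libraries, against 0.75 and 1.10 CPM in the control libraries, and was not called. Over the list, both stressed libraries lay above both controls in 7 of the 19 and below both in 1. The shares over all genes tested were 21.8% and 22.9%.

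Among the 9 sensors and factors, 3 fold changes were above 0 and 6 below, with a median of -0.016. DESeq2 called 0 of the 9, against 4.4% of all genes tested. In 2 of the 9 both stressed libraries lay above both controls, and in 2 both lay below, against 21.8% and 22.9% of all genes. At an unadjusted edgeR p below 0.05, 0 were higher and 0 were lower, against 5.17% and 7.6% of all genes. Creb3l2, which encodes a membrane-bound factor related to ATF6, was at 71.2 and 70.4 CPM in the stressed libraries, against 35.8 and 61.7 CPM in the control libraries, and passed edgeR only when control replicate 2 was left out (log2 fold change 0.98, adjusted p = 0.0325) among the 4 fits with a library left out. Atf6b and Mbtps2, a homologue of ATF6 and the protease that releases ATF6 from the membrane, had log2 fold changes of 0.21 and -0.25. The sensor genes, added here after their values were seen, had log2 fold changes of 0.21 with an SE of 0.32 for Ern1 (IRE1), -0.08 with an SE of 0.23 for Eif2ak3 (PERK) and -0.03 with an SE of 0.18 for Atf6. Each of these 3 was smaller than its SE, and each changed sign with 1 library left out: Ern1 was at -0.021 without control replicate 1, Eif2ak3 at 0.21 without control replicate 2 and Atf6 at 0.099 without stressed replicate 1.

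The translocon and signal peptidase list, whose products bring new proteins into the ER, had 10 of 16 fold changes above 0 and a median of 0.14. DESeq2 called 0 of the 16, against 4.4% of all genes tested. In 6 of the 16 both stressed libraries lay above both controls, and in 1 both lay below, against 21.8% and 22.9% of all genes. At an unadjusted edgeR p below 0.05, 0 were higher and 0 were lower, against 5.17% and 7.6% of all genes. Sec61a1, the channel subunit, was at 274 and 345 CPM in the stressed libraries, against 216 and 233 CPM in the control libraries. Ssr2 and Sec11c had log2 fold changes of 0.49 and 0.42 and passed edgeR without control replicate 1, at 0.88 and 0.84 (adjusted p = 0.0152 and 0.0161). Leaving out control replicate 1 moved this median to 0.41, and leaving out control replicate 2 moved it to -0.013.

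In the PERK-ATF4 arm, which reprogrammes amino acid supply and translation, 5 of 11 tested fold changes were above 0 and the median was -0.03. In 4 of the 11 both stressed libraries lay above both controls, and in 1 both lay below, against 21.8% and 22.9% of all genes. DESeq2 called 1 of the 11 as higher, Asns (asparagine synthetase), against 1.73% of all genes tested, and 0 as lower, against 2.67%. Asns was at 68.1 and 87.5 CPM in the stressed libraries, against 46.8 and 32.4 CPM in the control libraries (edgeR log2 fold change 0.97, SE 0.25, and a DESeq2 adjusted p of 0.0376). Sesn2, a sestrin gene, had a log2 fold change of 0.62 and passed edgeR without control replicate 1 (1.06, adjusted p = 0.0285). Cebpb, a transcription factor gene, was at -0.40 and was not called. Ddit3, which encodes the factor CHOP and was added after its value was seen, was at 36.3 and 39.7 CPM in the stressed libraries, against 34.3 and 35.0 CPM in the control libraries.

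**Figure D3:**
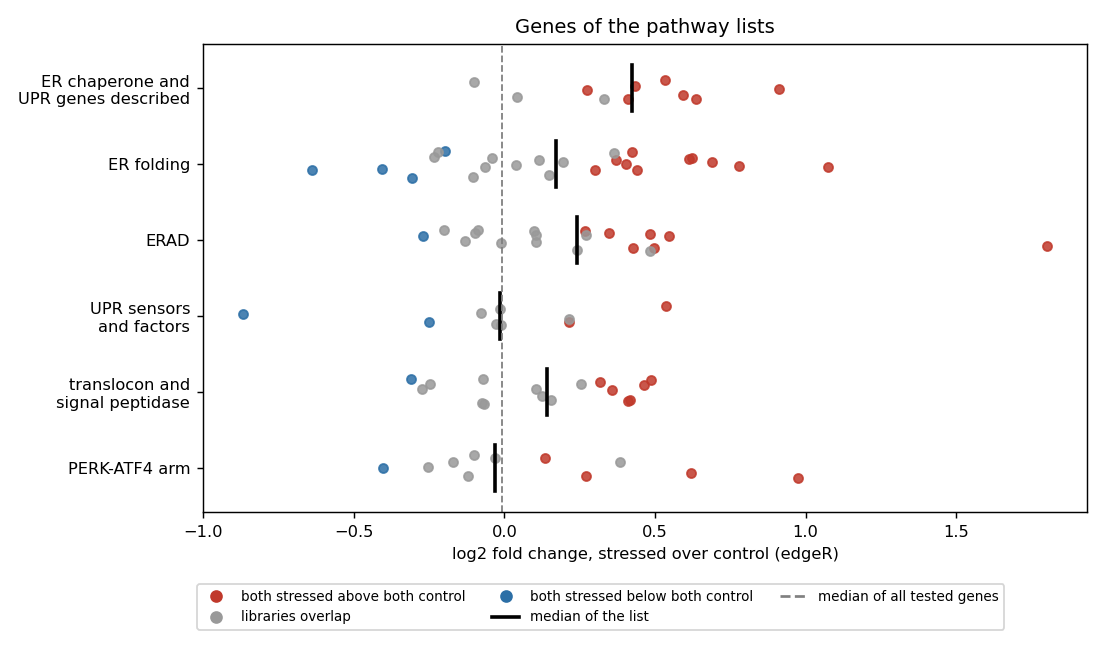
Log2 fold change, stressed over control (horizontal axis), of the 10 genes described (top row) and of the tested members of the other pathway lists, 1 point per gene, spread vertically at random within a row. Red points have both stressed libraries above both controls, blue points both below, and grey points overlap. The black bars, list medians, lie at 0.42 for the 10 genes, 0.17 for ER folding, 0.24 for ERAD and between -0.03 and 0.14 for the other lists, and the dashed line, the median of all tested genes, at -0.01.

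The promoter letters printed above were then set beside the values. ERSE was present in 39 of 32851 RefSeq promoter windows, 0.119%, ERSE-II in 12, 0.0365%, and UPRE in 222, 0.676%. Of the tested genes 18 had a window with ERSE, and 15 of their fold changes were above 0, with a median of 0.42, beside -0.0038 over the 10038 tested genes with a window. In 9 of the 18 both stressed libraries lay above both controls, and in 0 both lay below, against 21.8% and 22.9% of all genes tested. Hspa5, Hsp90b1, Pdia6 and Calr are among the 18, as are 5 genes of the ER folding and ERAD lists: Derl3, Dnajc3, Syvn1, Creld2 and Canx, of which Derl3, Creld2 and Canx were added after their values were seen. The ERSE stretch of Dnajc3, the gene of this group that rose by DESeq2, lies at chr14:118937797-118937875 on the plus strand.
Dnajc3: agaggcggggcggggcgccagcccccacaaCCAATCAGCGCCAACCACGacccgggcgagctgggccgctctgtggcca
The 9 genes with ERSE that are in none of the lists had 6 fold changes above 0 and a median of 0.11, and in 1 of them, Spats2l (added after its value was seen), both stressed libraries lay above both controls, so 8 of the 9 genes with that pattern came from the 10 genes described or the pathway lists. The 8 tested genes with ERSE-II had a median of 0.11 and the 108 with UPRE a median of 0.04. Sdf2l1, Pdia4 and Dnajb9, whose stressed libraries lay above both controls, held none of the 3 motifs in their windows, and Herpud1, with ERSE-II, was level. A match of letters is a description and does not show that a factor binds there.

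**Figure D4:**
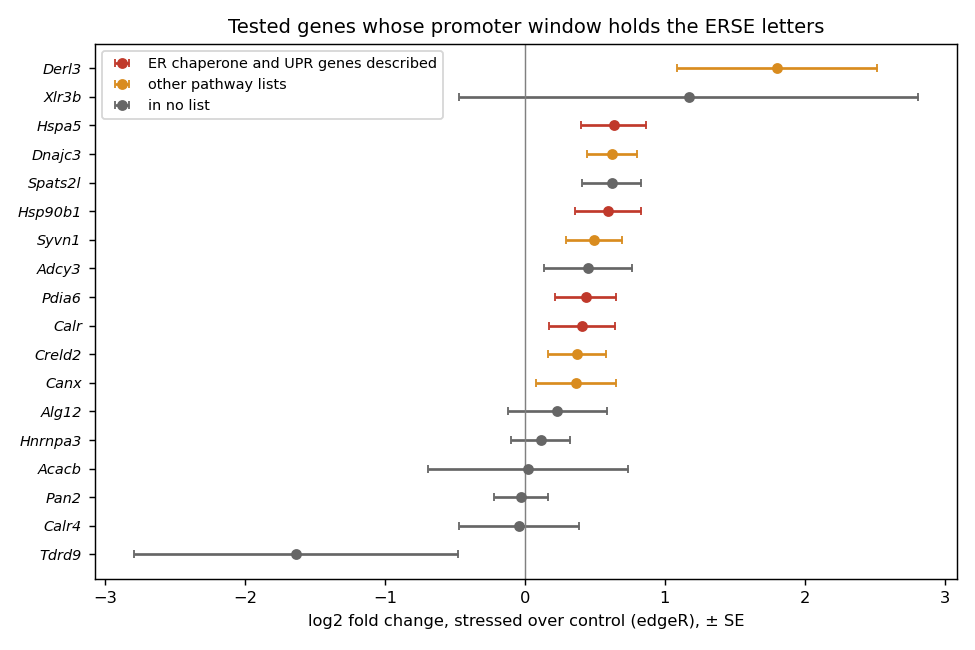
Log2 fold change, stressed over control (horizontal axis, bars ± SE), of the 18 tested genes whose promoter window holds the ERSE letters, in order of the fold change. Red points are 4 of the 10 genes described, orange points 5 genes of the other pathway lists and grey points 9 genes in no list. Red and orange points all lie above 0, and the grey points lie on both sides of it.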

How the data were processed

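RNA-seq counts from 4 libraries of sorted mouse melanocyte stem cells were used, 2 stressed and 2 control, grouped by the titles in the labels. The authors deposited raw read counts, 1 whole number per gene. Per the file headers, featureCounts 1.6.1 was used: exon reads were summed by gene name on mm10 at a minimum mapping quality of 30, with no strand and no paired-end option. Trim Galore 0.4.1, STAR 2.5.3 and DESeq2 1.22.2 are named in the submitters' processing notes, without their role. In those headers the alignments behind stressed replicates 1 and 2 are numbered 2 and 3. The libraries of a group differed beyond sampling noise (chi-square per degree of freedom 18.0 in the stressed pair and 54.0 in the control pair), so each counted as 1 replicate.

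Counts were fitted in R 4.3.3 with edgeR 4.0.16: filterByExpr with a minimum count of 10 kept 13348 of 27933 genes, TMM scaling was applied, and stressed was set against control by the two-sided quasi-likelihood F-test with Benjamini-Hochberg adjustment over all genes tested and a threshold of 0.05. The SE (standard error) was taken as the size of the log2 fold change over the square root of F. CPM used TMM-scaled totals, TPM divided counts by the files' exon length, and sums over gene lists used unscaled totals. As alternatives, scaling used DESeq2 size factors or the upper quartile, the filter was 1 count in all or 5 CPM in 2 libraries, the test was DESeq2 1.42.0 (Wald) or limma-voom (limma 3.58.1), a replicate block was added, and each library was left out in turn over the same genes. The code was tested on simulated data. The 10 genes, the pathway and marker lists and the tests were chosen with earlier results of these data known. Named in the text were all 10 genes, every other list gene called by edgeR or DESeq2, the 3 largest differences per list at a mean of at least 10 CPM, and the 5 genes most like Hspa5. Others are said to be added. Promoter windows came from RefSeq (GRCm38.p6). The sum over the Schwann cell markers and some of its genes are not reported here.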

Additional observations from a re-analysis of the deposited data

How the results depend on the processing

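EdgeR called 0 of the 10 genes and 0 of all genes with DESeq2 size factors, upper-quartile scaling, the filter of 5 CPM in 2 libraries and the replicate block, and limma-voom gave the same counts. With no low-count filter it called 760 genes in all, 1 of the 10 genes (Sdf2l1, adjusted p = 0.0288), 1 ER folding gene and 1 PERK-ATF4 gene. DESeq2 called 587 genes in all, 0 of the 10 genes, 2 ER folding genes and 1 PERK-ATF4 gene. With 1 library left out, edgeR calls ranged over 0 to 995 for all genes (866 without control replicate 1, 995 without control replicate 2, 0 without either stressed library), 0 to 4 for the 10 genes, 0 to 2 for the ER folding, translocon and PERK-ATF4 lists, and 0 to 1 for the sensors. For ERAD the count was 0 in all of these. Without a control library the spread was estimated from the stressed pair alone. Without a stressed library it was estimated from the control pair alone, which differed more. The cause of the ranges was not tested.

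Of the fold changes of genes named in the text, marker genes aside, 7 changed sign, all with 1 library left out: Herpud1 at -0.014 without control replicate 1 and -0.035 without stressed replicate 1 (range -0.035 to 0.13), Xbp1 at 0.15 without control replicate 1 (range -0.31 to 0.15), Manf at -0.021 without control replicate 2 (range -0.021 to 0.79), Ern1 at -0.021 without control replicate 1 (range -0.021 to 0.51), Eif2ak3 at 0.21 without control replicate 2 (range -0.31 to 0.21) and Atf6 at 0.099 without stressed replicate 1 (range -0.15 to 0.099). A further 22 kept their sign and passed the threshold, and 388 kept both sign and side. The labels do not say that replicate numbers pair the libraries. Deviations from the group means of same-numbered libraries correlated at 0.17 across genes, a single value since each group has 2 libraries, and with the replicate block the count of calls stayed at 0. Counts of the 10 genes were between 174 (Dnajb9) and 16073 (Hspa5) per library, so counting error weighs most on Dnajb9.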
